A study of Macaca fascicularis with 6 samples.

Results

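The 10 genes described here carry inflammatory signals in the heart: the chemokine ligands IL8, CCL2 and CXCL12, the cytokine IL18, the receptors IL1R1, OSMR and TLR4, the inflammasome sensor NLRP3, and the adhesion molecules VCAM1 and ICAM1. Their probe sets were found by the gene name in the array design, or by the annotation's symbol where no design name exists, which gave 21 probe sets for 10 of the 21576 genes named on the array. NLRP3 appears in the design under its older name CIAS1. Left ventricular free wall of adult male cynomolgus monkeys aged 4 to 6 years was hybridized to the Affymetrix Rhesus Macaque Genome Array, with 1 array for each animal. The intact group held 4 non-operated hearts (animals 11, 12, 13 and 14), and the block group held 2 hearts taken 8 months after ablation of the atrioventricular node (animals 2 and 8). All 6 animals were anesthetized with thiopental sodium before the heart was removed. Both animals of the block group had also received oral dl-sotalol and moxifloxacin and were examined because torsade de pointes had recurred in them, and the intact hearts had no sham operation, so the block, the drugs, the procedure and the arrhythmia cannot be told apart.

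Chemokines are small secreted proteins that draw leukocytes along a gradient through G protein-coupled receptors. CCL2 attracts monocytes, IL8 attracts neutrophils, and CXCL12 acts through CXCR4 and CXCR7. Most Toll-like receptors and the receptor of interleukin-1 can pass their signal through MYD88 to NF-kB, which induces chemokines and adhesion molecules. NLRP3 assembles the inflammasome in which caspase-1 matures interleukin-1 beta and interleukin-18. VCAM1 and ICAM1 on endothelial cells bind leukocyte integrins and hold the cells that the chemokines attract.

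At an adjusted p of 0.05 in limma's test across all probe sets, 0 of the 9 genes that could be tested passed, where 0.0221% of the 22577 probe sets tested did so (0.00443% higher and 0.0177% lower, 5 probe sets in all). CCL2 had the lowest p among them and was measured higher in both block hearts than in every intact heart, at 1.61-fold. OSMR and VCAM1 were measured lower in both block hearts than in every intact heart, at 0.665-fold and 0.722-fold. The OSMR signals lay near the level of undetected probe sets, and the VCAM1 signal of animal 2 lay within the range of such probe sets. IL18 was not called Present on any array, and IL8 and TLR4 lay near the level of undetected probe sets. The NLRP3 signals of animals 12, 13, 14 and 2 lay within the range of such probe sets. CXCL12 and ICAM1 were called Present on all arrays, and their folds were 0.862 and 0.998.

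The signals are fluorescence intensities that were scaled so that all arrays had the same 2% trimmed mean, which removes a difference in overall brightness between arrays. Each array calls a probe set Present, Marginal or Absent from a comparison of matching with mismatching probes. Of the 21 probe sets, 9 were Present on all 6 arrays, 5 on some and 7 on none. A probe set was tested where it was Present on at least 2 arrays, which held for 12 probe sets of 9 genes, and each gene is represented by its brightest tested probe set. Distance from background is the log2 of a signal over the median signal of the Absent probe sets on the same array, and 95% of the Absent probe sets lay below a scaled signal of 33.3 to 45.3 depending on the array. In whole tissue, fewer cells of a type and less RNA per cell cannot be told apart.

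**Figure D1:**
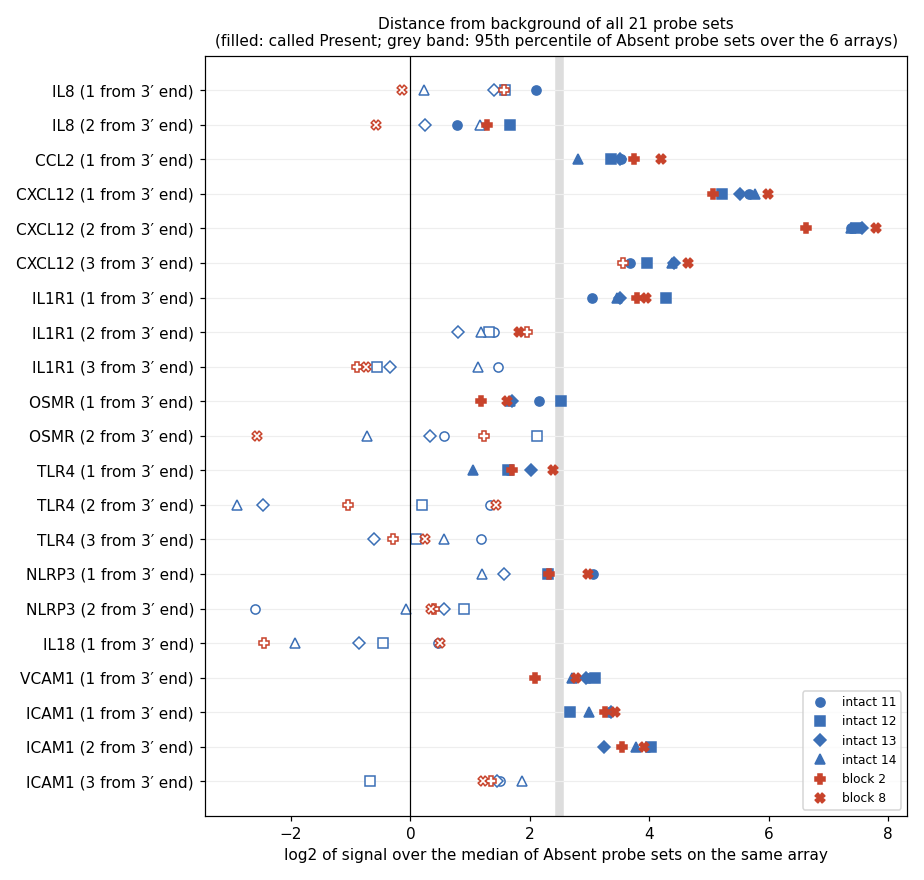
Distance from background (log2, horizontal axis) of each of the 21 probe sets in each animal, ordered within a gene from the 3′ end of the gene, with filled symbols for Present calls. All CXCL12 probe sets lie to the right of the grey band that marks the 95th percentile of Absent probe sets, whereas both IL8 probe sets and the IL18 probe set lie to its left.

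The amplification starts at the 3′ end of the RNA, so the place of a probe set along its gene bears on what it can detect. Among the 7 genes with several probe sets, the probe set nearest the 3′ end was Present on all arrays in 5 genes, and of the 11 other probe sets 2 were Present on all arrays and 6 on none. The ratio of 3′ to 5′ signal of GAPDH, a measure of RNA integrity and amplification, was 2.17 to 2.65 on the intact arrays, 5.05 in animal 2 and 3.05 in animal 8. The same ratio of ACTB was 7.85 to 10.9 on the intact arrays, 11.6 in animal 2 and 8.98 in animal 8, which is inside the intact range. The paper judged its RNA samples to be of low degradation and high purity. The part of RNA integrity and amplification in the differences below was not tested. Coordinates are those of the array annotation, on the rhesus draft genome Mmul_051212, and the array was designed on rhesus sequence while the animals are cynomolgus monkeys.

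CCL2 has a single probe set, whose target at chr16:29552737-29553210 on the plus strand ends at the 3′ end of the annotated transcript. Its scaled signal was 71.1, 66.4, 77.3 and 53.7 in intact animals 11, 12, 13 and 14, and 102 and 113 in block animals 2 and 8. All 6 calls were Present, and the groups did not overlap. The mean was 67.1 ± 10.0 (SD, n = 4) in the intact group and 108 ± 7.60 (SD, n = 2) in the block group. The log2 fold change was 0.69 (SE 0.22, limma adjusted p = 0.477), with a 95% interval for the fold of 1.14 to 2.29 before adjustment. On the signals as deposited, without scaling, the fold was 1.25 and the groups overlapped, with means of 71.9 and 91.2.

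IL8 is the neutrophil chemokine also called CXCL8. Its tested probe set (chr5:55944342-55945728, minus strand) gave 10.6, 20.7, 7.99 and 17.3 in intact animals 11 to 14 and 18.6 and 4.11 in block animals 2 and 8. It was called Present in animals 11, 12 and 2, and its distance from background ran from -0.58 to 1.67. The groups overlapped, with animal 8 lowest of all, and the log2 fold change of -0.59 had an SE of 0.70 (limma adjusted p = 0.856). Without animal 8 the log2 fold change was 0.49. The second probe set, nearer the 3′ end, gave 26.3, 19.5, 17.8 and 9.01 in the intact animals and 22.7 and 5.57 in the block animals, was Present only in animal 11 and was not tested. Animal 8 was lowest in both probe sets.

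CXCL12, a chemokine that stromal cells make constitutively, was measured by 3 probe sets on chromosome 9. The brightest (chr9:44549500-44550068, minus strand, 28 bases from the annotated transcript end) gave 1022, 1142, 1272 and 1276 in intact animals 11 to 14 and 751 and 1361 in block animals 2 and 8. The block hearts lay on either side of the whole intact range, animal 2 below it and animal 8 above it. The means were 1178 ± 121 (SD, n = 4) and 1056 ± 431 (SD, n = 2), and the log2 fold change was -0.21 (SE 0.24, limma adjusted p = 0.837). Without animal 2 it was 0.21 and without animal 8 it was -0.64. The probe set nearest the 3′ end lies beyond the annotated transcript end and is not assigned to a transcript. It gave 313, 241, 311 and 418 in the intact animals and 258 and 390 in the block animals, a fold of 1.01. The probe set farthest from the 3′ end gave 78.2, 101, 144 and 160 in the intact animals and 90.2 and 155 in the block animals, a fold of 1.02, and was Absent in animal 2. In all 3 probe sets animal 8 was above animal 2.

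**Figure D2:**
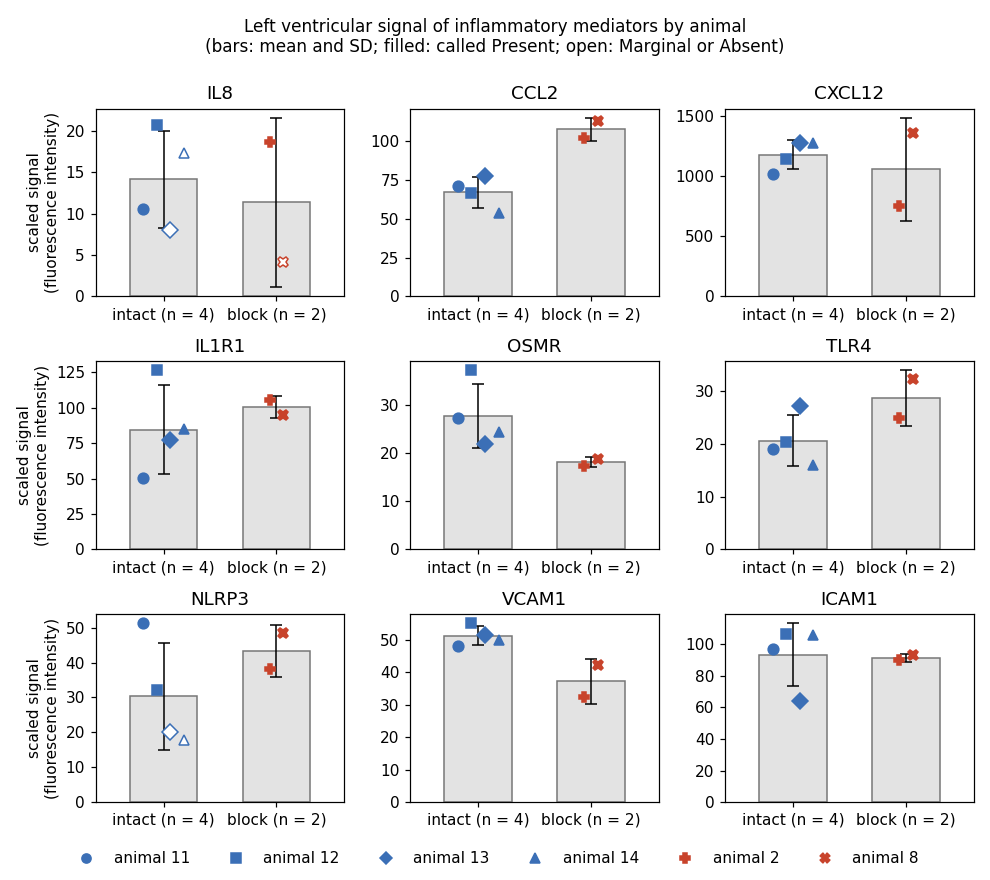
Scaled signal (vertical axis, fluorescence intensity, separate scale for each gene, starting at 0) of the representative probe set of the 9 tested genes in each animal, with bars for the mean and lines for the SD of 4 intact and 2 block hearts. Both CCL2 values of the block group, 102 and 113, stand above the 4 intact values, and for OSMR and VCAM1 both stand below them.

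IL18, the interleukin that caspase-1 matures, has 1 probe set (chr14:110605519-110605752). Its signal was 8.44, 4.75, 3.74 and 2.01 in the intact animals and 1.39 and 8.66 in the block animals. It was Marginal in animal 11 and Absent elsewhere, at a distance from background of -2.46 to 0.49. A level of IL18 RNA was not measured by this probe set in any of these hearts, and no fold is given.

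IL1R1, the signalling receptor of interleukin-1, was represented by a probe set at chr13:102113467-102113739 that lies beyond the annotated transcript end on the plus strand and is not assigned to a transcript. It gave 50.5, 126, 77.0 and 84.7 in intact animals 11 to 14 and 106 and 94.99 in block animals 2 and 8, all Present. Both block values lay inside the intact range, which spanned 2.50-fold. The log2 fold change was 0.32 (SE 0.33, limma adjusted p = 0.824), and on the deposited signals without scaling it was -0.05. A probe set within the transcript's span was called Absent in all intact hearts, at 11.8 to 17.4, Marginal in animal 2 at 29.5 and Present in animal 8 at 21.7, and none of its probes match an annotated transcript. The last probe set aligned to the opposite strand and was Absent on all arrays.

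OSMR pairs with gp130 to form the receptor of oncostatin M, a cytokine of the interleukin-6 family to which cardiomyocytes respond. Its tested probe set (chr6:38764865-38765661, plus strand) gave 27.4, 37.2, 21.97 and 24.4 in intact animals 11 to 14 and 17.3 and 18.9 in block animals 2 and 8, all Present. These signals are near the level of Absent probe sets, at a distance from background of 1.18 to 2.52. The groups did not overlap, and animal 8 lay close under intact animal 13. The means were 27.7 ± 6.68 (SD, n = 4) and 18.1 ± 1.07 (SD, n = 2). The log2 fold change was -0.59 (SE 0.34, limma adjusted p = 0.681), with a 95% interval for the fold of 0.392 to 1.13. The other OSMR probe set lies within the span of the annotated gene, matches no annotated transcript and was Present on no array.

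TLR4, the receptor for lipopolysaccharide, was measured by a probe set at chr15:18363346-18364122 on the minus strand, 6 bases from a transcript end. Its signal, at a distance from background of 1.05 to 2.39, was 19.0, 20.3, 27.2 and 16.0 in intact animals 11 to 14 and 24.9 and 32.4 in block animals 2 and 8, all Present. On every array the TLR4 signal lay below the 95th percentile of Absent probe sets, so it is near their level. Animal 8 was highest of all, and animal 2 was below intact animal 13. The log2 fold change was 0.49 (SE 0.35, limma adjusted p = 0.752). Its other 2 probe sets, farther from the 3′ end, were Absent on all arrays.

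NLRP3 was measured by a probe set at chr1:209538542-209539118 on the minus strand. It gave 51.3, 32.04, 20.1 and 17.8 in intact animals 11 to 14 and 38.0 and 48.5 in block animals 2 and 8. It was Present in animals 11, 12, 2 and 8 and Absent in animals 13 and 14, and intact animal 11 was the highest of all. Its distance from background was 1.21 to 3.06. In animals 12, 13, 14 and 2 the signal lay below the 95th percentile of Absent probe sets. The log2 fold change was 0.63 (SE 0.44, limma adjusted p = 0.744), and it was 0.93 without animal 11. The second NLRP3 probe set was Absent on all arrays, at a distance from background of -2.60 to 0.90.

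VCAM1 binds the integrin that ITGA4 and ITGB1 form on leukocytes. Its single probe set (chr1:103797553-103798296, plus strand) ends at the annotated transcript end. It gave 48.2, 55.1, 51.6 and 50.1 in intact animals 11 to 14 and 32.4 and 42.2 in block animals 2 and 8, all Present. The intact hearts spanned 1.14-fold, and both block hearts lay below them. The distance from background was 2.08 to 3.08 and was lowest in animal 2. On the array of animal 2 the VCAM1 signal lay below the 95th percentile of Absent probe sets, a scaled signal of 42.7. The means were 51.3 ± 2.91 (SD, n = 4) and 37.3 ± 6.93 (SD, n = 2). The log2 fold change was -0.47 (SE 0.24, limma adjusted p = 0.649), with a 95% interval for the fold of 0.497 to 1.05. The value rested more on animal 2, at 0.633 of the intact level, than on animal 8, at 0.824.

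ICAM1 binds the beta-2 integrins of leukocytes. Its representative probe set (chr19:10098156-10098749, plus strand) gave 96.8, 106, 64.2 and 106 in intact animals 11 to 14 and 89.7 and 93.0 in block animals 2 and 8, all Present. The block hearts lay inside the intact range, and the log2 fold change was -0.00 (SE 0.25, 95% interval for the fold 0.670 to 1.49, limma adjusted p = 0.998). A second Present probe set, nearer the 3′ end, gave 61.6, 41.6, 69.6 and 61.4 in the intact animals and 73.4 and 66.1 in the block animals, a fold of 1.21 (adjusted p = 0.807). The annotation assigns both targets to a predicted ICAM4-like transcript as well, so ICAM1 and ICAM4 cannot be told apart there. The remaining ICAM1 probe set was Absent on all arrays, at 4.05 to 28.0.

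**Figure D3:**
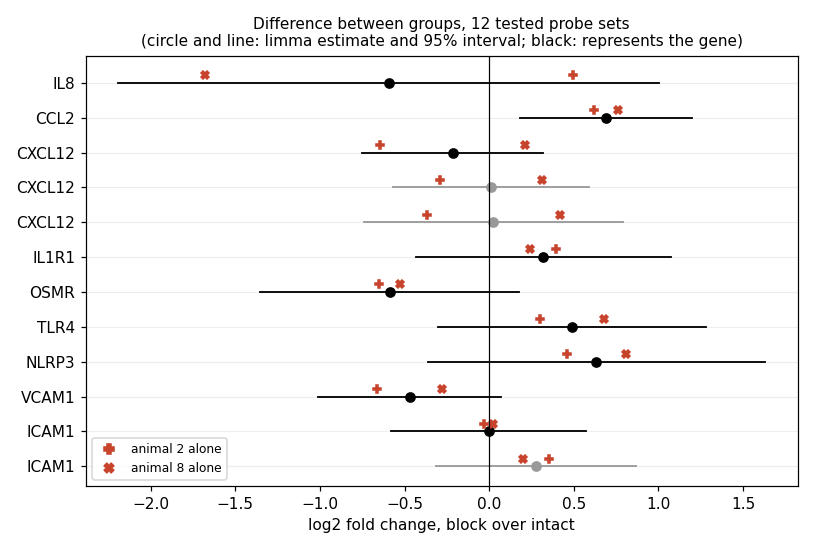
Log2 fold change of block over intact hearts (horizontal axis) for the 12 tested probe sets, with limma's estimate and 95% interval before adjustment, and the value of each block animal alone over the intact mean. The interval of CCL2 lies above 0, and those of the other 11 probe sets include 0.

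Across the 9 tested genes, 4 had a higher and 5 a lower mean log2 signal in the block group, beside 49.6% of all tested probe sets higher. Their median log2 fold change was -0.00, the same as that of all genes tested to 2 decimals. At an unadjusted p of 0.05, 1 of the 9 passed, in a table where 8.24% of probe sets did. The groups did not overlap for 3 of the 9 genes, 1 higher and 2 lower, where 18.1% of all tested probe sets did not overlap (8.61% higher and 9.48% lower). This count changed when some single hearts were left out. It was 6 without animal 2, when CXCL12 and TLR4 joined CCL2 above the intact range and IL8 joined OSMR and VCAM1 below it, and 5 without intact animal 13. Leaving out a heart can only keep or raise such a count.

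The 2 block hearts differed from each other within these genes. Animal 8 was above animal 2 in CCL2, CXCL12, OSMR, TLR4, NLRP3, VCAM1 and ICAM1 and below it in IL8 and IL1R1. The widest ratios were in IL8, where animal 2 was at 1.41 and animal 8 at 0.312 of the intact level, and in CXCL12, at 0.640 and 1.16. Summed over markers of macrophages and monocytes, the signal was also higher in animal 8. The sum was 604 to 871 in the intact hearts, 778 in animal 2 and 1434 in animal 8. CD68, MSR1 and FCGR3A were lower in animal 8 than in animal 2. In the list of 12 such markers, 11 had a higher block mean on the log2 scale, 8 were Present on all arrays, and MARCO was Absent on all (exact permutation test, 2-sided, p = 0.4, adjusted over 11 cell type lists p = 0.629). The part of these cells in the values of CCL2 and TLR4 was not tested. The summed endothelial markers, which include PECAM1 and CDH5 and bear on VCAM1 and ICAM1, were 3079 to 3740 in the intact hearts, 3093 in animal 2 and 3815 in animal 8 (exact permutation test, 2-sided, p = 0.933), with 7 of 8 Present on all arrays.

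Neutrophil markers gave sums of 515 to 710 in intact hearts, 805 in animal 2 and 927 in animal 8 (exact permutation test, 2-sided, p = 0.133, adjusted p = 0.587). These sums were mostly the signal of CXCR2, while CSF3R, S100A9, S100A12 and MPO were Present on no array. T cell markers summed to 429 to 673 in intact hearts and 513 and 709 in block hearts, with CD3E and IL7R Present on no array. Mast cell markers summed to 83.6 to 125 in intact hearts and 128 and 147 in block hearts. None of the 4 mast cell markers on the array was Present on all arrays, and MS4A2 and HDC were Present on no array. Fibroblast sums were 11738 to 21468 in intact hearts and 13859 and 19651 in block hearts, and smooth muscle sums 4553 to 5976 against 5693 and 6389. Red blood cell sums were 5692 to 16227 in intact hearts and 22492 and 16102 in block hearts, and adipocyte sums 944 to 4858 against 5104 and 3274. The lowest adjusted p of these lists was 0.587. The smallest p that 4 against 2 animals can give in this test is 0.0667. All 7 cardiomyocyte markers on the array were Present throughout, with sums of 59255 to 70104 in intact hearts and 80663 and 66064 in block hearts. Between arrays, 36.0% to 39.7% of probe sets were Present, and the trimmed mean before scaling was 75.1 to 88.2 in intact hearts, 54.6 in animal 2 and 73.5 in animal 8.

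Likeness of pattern was measured as the root mean square difference of log2 signals, each gene centred on its mean over the 6 arrays, among 13006 other genes. The 3 genes closest to CCL2 were the unnamed locus LOC693942 (0.0601), HEY2, a Notch target and transcriptional repressor (0.0952), and ANK3, which encodes the membrane adaptor ankyrin-G (0.103). HEY2 gave 280, 262, 286 and 245 in intact hearts and 415 and 481 in block hearts, and its own adjusted p was 0.347. Among the 9 tested genes themselves, the closest pair was CCL2 and TLR4, at 0.164, with the TLR4 signals near the level of Absent probe sets.

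Related genes were taken from 6 lists, none of which repeats the 10 genes. Of 139 genes, 131 were on the array and 80 were tested. No gene of any list passed limma's adjusted threshold in either direction. At an unadjusted p of 0.05, 5 were higher and 3 lower (3.62% and 4.62% of all tested probe sets), and 40 lay above and 40 below the intact level. The groups did not overlap for 10 higher and 5 lower genes of the 80, beside 8.61% and 9.48% of all tested probe sets. The lists' median log2 fold changes lay between -0.24, for chemokine ligands, and 0.03, for Toll-like receptor and NF-kB signalling.

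**Figure D4:**
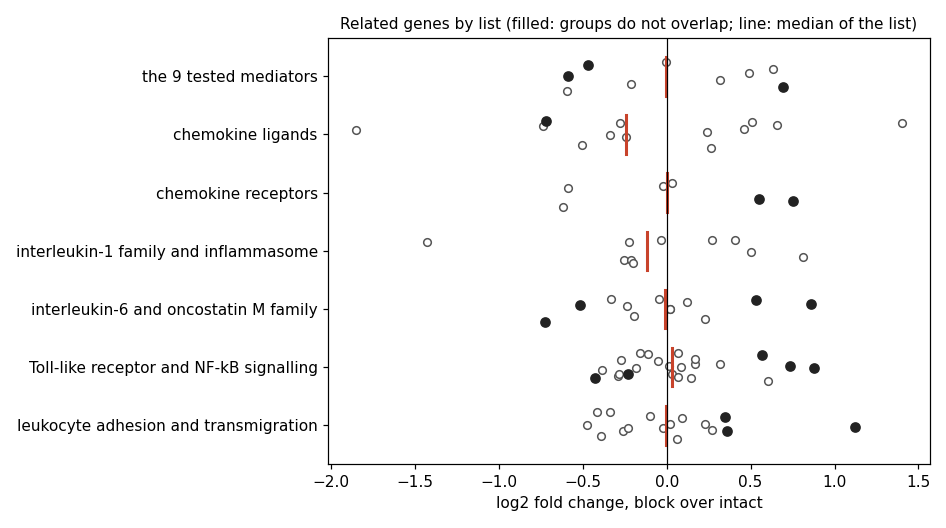
Log2 fold change of block over intact hearts (horizontal axis) for the tested genes of 6 related lists and the 9 tested mediators, 1 point per gene, filled where the groups do not overlap, with a line at each list's median. Points lie on both sides of 0 in every list, and the medians stay between -0.24 and 0.03.

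Of the 27 other chemokine ligands on the array, 13 were tested, and CCL5, CX3CL1, CCL7 and CCL20 were among the 14 that were not. Of 16 chemokine receptors 6 were tested, and CXCR4, through which CXCL12 signals, and CCR2, the receptor of CCL2, were not. CXCR7, the other receptor of CXCL12, falls outside the rule for named genes and was added after its values were seen. It was Present on all arrays and gave 1110, 1576, 822 and 664 in intact hearts and 432 and 963 in block hearts. The groups overlapped, with animal 2 below and animal 8 inside the intact range, and the fold was 0.653 (limma adjusted p = 0.712). Its other tested probe set gave 1.07-fold. The receptor gene of IL8 that was tested, CXCR2, gave 459, 660, 618 and 435 in intact hearts and 709 and 859 in block hearts, a fold of 1.46 (limma adjusted p = 0.558). This probe set and a second one at 1.29-fold carry the symbol CXCR2 in the annotation, whereas the probe set that the design itself names for the gene was close to background and gave 0.310-fold. The 3 probe sets of CXCR2 therefore did not give 1 direction.

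Of the interleukin-1 and inflammasome genes, 10 of 16 on the array were tested and 4 lay above and 6 below the intact level. The cytokines IL1A and IL1B and the antagonist IL1RN were not tested, so the ligands of IL1R1 were not measured above the detection filter. In the interleukin-6 and oncostatin M family 12 of 15 were tested. OSM, the ligand of OSMR, and LIF were not. LIFR, the receptor of leukemia inhibitory factor, gave 872, 815, 456 and 674 in intact hearts and 404 and 424 in block hearts, a fold of 0.606 (limma adjusted p = 0.509), and a second bright LIFR probe set gave 0.919. IL6R, the interleukin-6 receptor, gave 138, 133, 154 and 122 in intact hearts and 86.5 and 105 in block hearts, a fold of 0.699 (adjusted p = 0.544), and its other probe set gave 0.674. JAK2, a kinase of gp130 signalling, gave 147, 119, 94.2 and 135 in intact hearts and 175 and 179 in block hearts, a fold of 1.45 (adjusted p = 0.577), and its other tested probe set gave 1.06.

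Of the Toll-like receptor and NF-kB genes, 23 of 36 were tested, and TLR2, TLR3 and TNF were not. TICAM2, the bridging adaptor of TLR4, gave 112, 132, 199 and 146 in intact hearts and 274 and 210 in block hearts, a fold of 1.67 (limma adjusted p = 0.499), with 1.32 for its other probe set. TLR8, a sensor of single-stranded RNA, had a fold of 1.84 (adjusted p = 0.624) at signals of 11.2 to 34.4. NFKBIB, an inhibitor of NF-kB, had a fold of 1.48 (adjusted p = 0.778) at signals of 8.00 to 20.2, while its other probe set, Absent on all arrays at 21.7 to 44.1, was lower in both block hearts than in every intact heart, so the 2 probe sets of NFKBIB did not give 1 direction. The TLR8 and NFKBIB signals lay near the level of Absent probe sets. In this list the groups did not overlap for 3 genes higher and 2 lower. The 2 lower genes fall outside the rule for named genes. NFKBIA, another inhibitor of NF-kB, was Present on all arrays. It gave 590, 575, 662 and 677 in intact hearts and 461 and 467 in block hearts, a fold of 0.743 (limma adjusted p = 0.513). TNFRSF1B had a fold of 0.853 (limma adjusted p = 0.832).

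Of the adhesion and transmigration genes, 16 of 21 were tested, and SELE, the endothelial selectin induced together with VCAM1 and ICAM1, was not. CD44, a hyaluronan receptor on leukocytes and stromal cells, gave 117, 187, 156 and 107 in intact hearts and 196 and 465 in block hearts, a fold of 2.18 (limma adjusted p = 0.473). Animal 2 was close to the highest intact heart and animal 8 far above it, and animal 8 was also far above the other hearts in a second CD44 probe set, at 2.91-fold. In the rest of the 4 tested CD44 probe sets the groups overlapped. These gave 2.03-fold, with animal 8 again far above the other hearts, and 1.33-fold, with intact animal 14 highest. ITGB1, the beta subunit of the integrin that binds VCAM1, gave 3918, 4070, 3358 and 3873 in intact hearts and 4886 and 4839 in block hearts. Its fold was 1.28 (limma adjusted p = 0.562). Its 3 other tested probe sets gave 1.27, 1.35 and 1.45, and the groups overlapped in those at 1.27 and 1.35. ITGA4, the other subunit of that integrin, falls outside the rule for named genes. It gave 1.01-fold at signals of 23.1 to 48.8. ICAM2, which endothelial cells carry constitutively, gave 148, 171, 159 and 127 in intact hearts and 172 and 213 in block hearts, a fold of 1.27 (adjusted p = 0.684).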

How the data were processed

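Total RNA (100 ng) from at least 50 mg of left ventricular free wall was amplified with a 3′ kit and hybridized by the authors, who computed the signals with MAS5 and collected them in GeneSpring. The deposited signals are linear intensity values, 1 at the lowest, each with a detection call and a deposited detection p-value that is not adjusted. The deposited normalized log2 values are the authors' signals minus the array median and the probe set's median over intact arrays, as checked by rebuilding them. A deposited count of probe pairs used per probe set was not used, and a second table holds the same intensity values.

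Here the signals of all arrays were brought to the same 2% trimmed mean and analysed as log2. Probe sets Present on at least 2 of 6 arrays were fitted in R 4.3.3 by limma 3.58.1 (lmFit, eBayes with trend), 2-sided, with Benjamini-Hochberg adjustment over 22577 probe sets and a threshold of 0.05. The steps were tested on simulated data. Tables were handled with pandas 2.3.3 and exact permutation tests run over the 15 splits of 6 arrays. Nothing in the sources gives a batch. The number of arrays limits the precision.

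The members, lists and named genes were chosen with earlier results of these data known. All 10 genes are named with every probe set. Each related list adds genes past the threshold and up to 3 others with the largest log2 fold change among tested genes whose groups do not overlap and that were Present in every heart of the higher group, which gave none for chemokine ligands and for interleukin-1 genes. For the gene of lowest p, the 3 closest patterns are named. Marker lists covered macrophages, neutrophils, T cells, mast cells, endothelial cells, fibroblasts, smooth muscle cells, cardiomyocytes, red blood cells and adipocytes, and their lowest adjusted p was 0.587. The result of 1 further list is not reported here. Genes of the Y chromosome or of X inactivation were left unnamed. The alternatives were other scalings, an offset, a floor, other filters, other eBayes settings, other assignments of probe sets to genes, and leaving out each animal.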

Additional observations from a re-analysis of the deposited data

How the results depend on the processing

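None of the members and related genes that could be tested (9 and 80, or fewer under some alternatives) passed the adjusted threshold under any alternative, and the lowest adjusted p of a member was 0.244. The other filters and eBayes settings left every member's fold unchanged, as did averaging for genes with a single tested probe set. Part of the recalculations could therefore not change a direction. With these included, the log2 fold changes of the tested members kept their direction in 130 of 141 recalculations. Those that turned were ICAM1 (0.0043 with quantile normalization, 0.14 as the mean of its probe sets, -0.17 to 0.070 when each animal was left out), IL1R1 (-0.051 on deposited signals, -0.044 with a floor of 100), CXCL12 (0.025 with the annotation's symbols, -0.64 to 0.21 when each animal was left out, above 0 only without animal 2) and IL8 (-1.68 to 0.49, above 0 only without animal 8), and the cause was not tested. Without scaling, the median log2 fold change of all tested probe sets was -0.37. Groups that do not overlap were counted in 3 to 6 members when each animal was left out, which can only keep or raise the count, in 1 with a floor of 100 and in 1 with the annotation's symbols, which found 4 tested members. With that floor 5 members were at the floor on every array and gave no value. Over all probe sets 5 passed, against 0 with quantile normalization, with the authors' normalized values or without a trend, 20 without scaling, 8 with an offset of 32, 10 with the floor, and 0 to 4 when each animal was left out. Leaving out a block heart assumes that the remaining one varies like the intact hearts. No paired analysis was possible because the groups share no animal numbers.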

Other observations

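The chemokines of the receptor CXCR3, which interferon induces and which attract T cells, were chosen for these sentences after their values were seen. CXCL10 gave 25.2, 24.2, 27.9 and 136 in intact animals 11, 12, 13 and 14 and 385 and 9.86 in block animals 2 and 8, and its other probe set gave 26.8, 27.2, 38.4 and 83.5 in the intact animals and 195 and 17.0 in the block animals. CXCL10 was therefore highest in block animal 2 and lowest in block animal 8 in both probe sets, with intact animal 14 above the other intact animals. CXCL11 gave 57.8 in animal 14 and 80.3 in animal 2, and 4.19 to 27.7 in the other hearts. Its 2 other tested probe sets differed, since 1 gave 31.9 in animal 14 and 49.8 in animal 2 and 1.73 to 26.7 in the other hearts, and 1 gave 33.01 in animal 14 but 17.9 in animal 2, inside the range of the other hearts. CXCL9 gave 107, 120 and 116 in animals 11, 14 and 2, and 21.6 to 51.1 in animals 12, 13 and 8. None of these genes separated the groups, and limma's unadjusted p for the representative probe sets was 0.615 for CXCL10, 0.152 for CXCL11 and 0.668 for CXCL9.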
